A study of Homo sapiens with 6 samples.

Results

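Homologous recombination and Fanconi anaemia genes were followed in OVCAR5, a long-established human line that stands for ovarian cancer in culture. The cells had been exposed for 3 days to 100 nM NTX301, named a DNA hypomethylating agent in the series title, or to dimethyl sulfoxide (DMSO), the control. Each group had 3 RNA sequencing libraries, and both groups came from the same unmodified line, grown in the same medium. The 39 genes were taken by name from the textbook pathway, out of 62656 genes in the tables, by a rule that uses no measured value, though with earlier results of these data known. All 39 were found by Ensembl identifier, and all 39 were expressed well enough to be tested, with 76 to 4682 reads in a library. Separate cultures are not stated in the labels for the libraries of a group, and the p-values therefore measure only the spread among these libraries, which may be technical.

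Homologous recombination repairs a broken DNA molecule by copying the intact sister chromatid. The break is sensed and trimmed by the MRE11 complex and its partner CtIP, the checkpoint kinases signal its presence, and BRCA1, PALB2 and BRCA2 prepare the exposed strand for pairing with the sister. The Fanconi anaemia pathway recognises crosslinks between DNA strands at stalled replication forks, marks the FANCD2 and FANCI pair with ubiquitin and passes the lesion on to recombination. Many of these genes are transcribed mainly in S and G2 phase, and inherited loss of several of them predisposes to ovarian cancer.

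The libraries held 22131175 to 25743732 estimated reads in total. The treatments separated on the first principal component (79.8% of the variance of log2 CPM, the read count of a gene relative to the scaled library total), and DMSO replicate 3 stood apart from the other DMSO libraries on the second (6.3%). All 7 epithelial markers were expressed. EPCAM, KRT8, KRT18 and KRT19 fell with NTX301 and KRT7, CDH1 and MUC1 rose. Of 4 markers of ovarian carcinoma, PAX8 was at 8.65 CPM with DMSO and 10.0 CPM with NTX301, MUC16 fell from 3.55 to 0.710 CPM, and WT1 and ESR1 were too low to test. Of 7 leukocyte markers 4 were tested, of which 2 rose and 1 fell. The 7 summed to 46.1 to 52.3 TPM with DMSO and 81.5 to 89.0 TPM with NTX301 (TPM is a level per transcript length, relative to all transcripts). CD68 rose from 27.8 to 46.1 CPM and CD14 from 13.6 to 19.1 CPM, and LYZ fell from 2.43 to 1.63 CPM. PTPRC and CD3E had no reads with DMSO. Of 4 endothelial markers 3 were tested and 2 rose (1.47 to 1.64 and 2.12 to 2.38 TPM in sum). Among 8 fibroblast markers 5 were tested, of which 4 rose and 1 fell, with a summed level of 5.20 to 5.89 TPM with DMSO and 21.1 to 21.9 TPM with NTX301. COL1A1 rose from 13.8 to 48.4 CPM, PDGFRB from 1.08 to 8.40, PDGFRA from 0.650 to 5.16 and COL3A1 from 0.248 to 0.698 CPM. LUM fell from 1.68 to 1.05 CPM. COL1A2 had no reads with DMSO and DCN and THY1 were under 0.1 CPM in both groups. The part of these shifts in the results below was not tested.

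With NTX301, 31 of the 39 genes rose and 2 fell (quasi-likelihood test in edgeR, adjusted p under 0.05 by Benjamini-Hochberg over 19029 genes). Over all tested genes 35.4% rose and 35.1% fell by the same rule. The rise reached 2-fold or more in 15 of the 39, against 13.4% of all tested genes, and no member fell by 2-fold, against 8.55% of all tested genes. The median log2 fold change of the members was 0.83, and that of all tested genes was 0.00. The groups did not overlap in CPM for 34 members, 31 higher and 3 lower with NTX301. Over all tested genes this held for 73.7%, with 37.2% higher and 36.5% lower. Without a scaling factor the median over all genes was 0.21, and changes are given relative to the scaled libraries. Without DMSO replicate 3, 31 members rose and 3 fell. With no scaling factor 34 members rose and 1 fell, with 8793 of all genes rising and 4732 falling, against 6744 and 6677 with scaling.

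Summed over the 39 genes, the level was 546, 553 and 574 TPM in the DMSO libraries and 1021, 1018 and 1093 TPM in the NTX301 libraries. The means were 558 ± 14.9 and 1044 ± 42.8 TPM (SD, n = 3 each), a ratio of 1.87, which was 1.49 for summed CPM. Every treated library lay above every control library in this sum. Single genes differed widely in level. With DMSO, NBN was highest at 70.8 ± 1.56 TPM and FANCB and BRIP1 were lowest, at 1.18 to 1.38 and 1.18 to 1.47 TPM, with overlapping values. With NTX301 the highest were RAD51C at 78.4 ± 4.79, UBE2T at 76.9 ± 5.21, FANCI at 73.6 ± 4.87 and CHEK1 at 72.2 ± 3.38 TPM, and adjacent genes in this order did not differ beyond their spread. FANCB and BRIP1 were again lowest, with overlapping values, at 3.57 ± 0.344 and 4.04 ± 0.292 TPM.

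**Figure D1:**
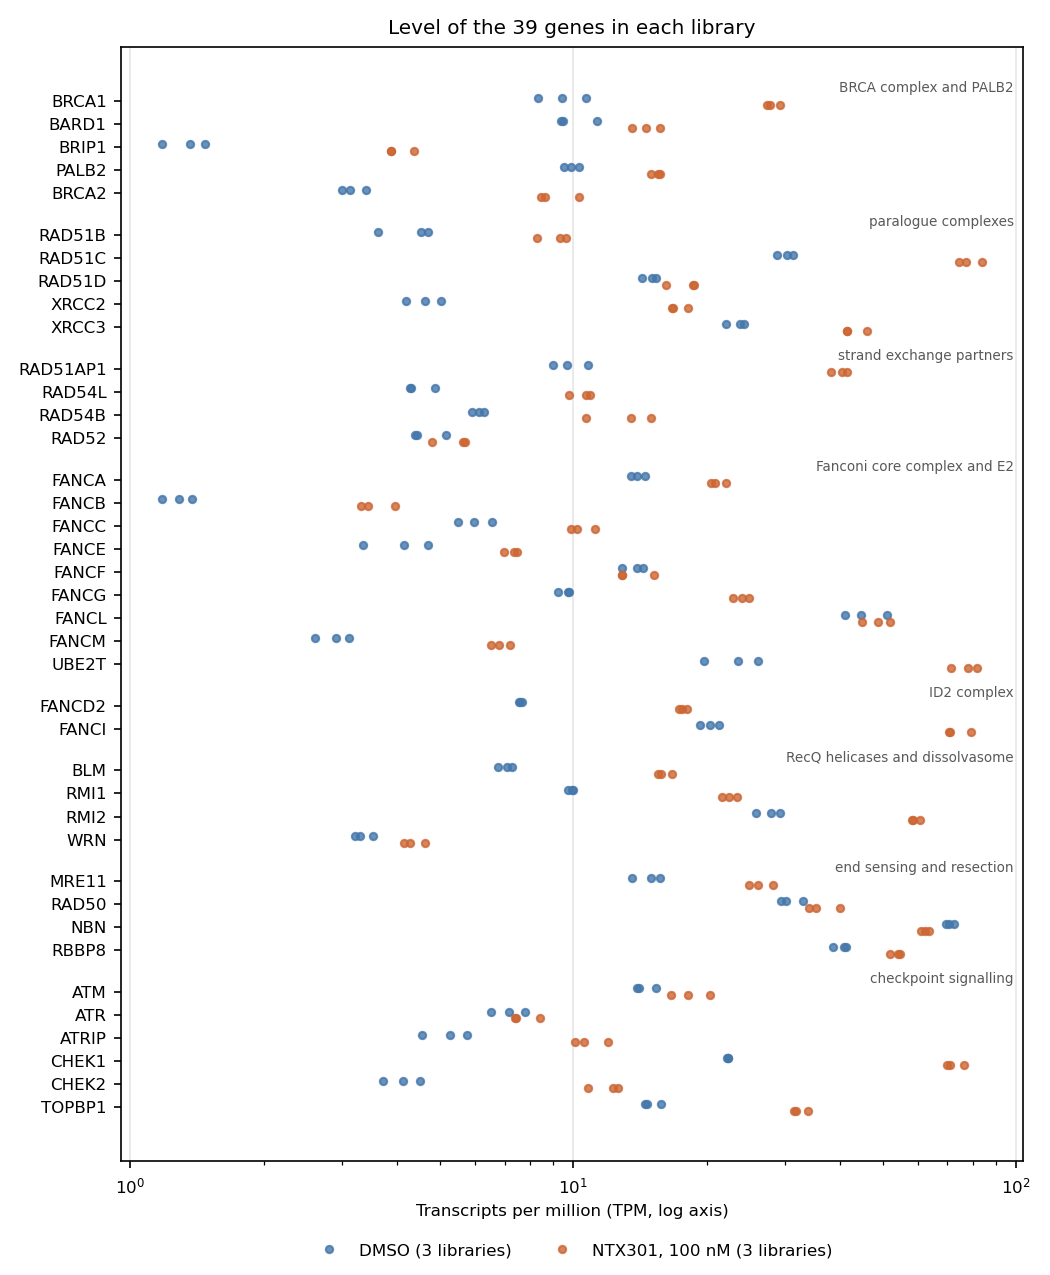
Level of each of the 39 genes in each library in TPM on a log axis, grouped by role, with 1 point per library (blue DMSO, orange NTX301). Most genes lie further right with NTX301, while NBN lies further left and FANCF, FANCL, RAD52 and ATR overlap.

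All 5 genes of the BRCA complex and its partners rose. BRCA1, a ubiquitin ligase that promotes end resection (ENSG00000012048.24, chromosome 17, 43044295 to 43170245 in GRCh38), was at 31.5, 31.1 and 32.4 CPM with DMSO. It was at 85.2, 83.6 and 88.3 CPM with NTX301, so that the lowest treated library lay far above the highest control. Its log2 fold change was 1.44 ± 0.04 (estimate ± SE, edgeR adjusted p = 1.6e-10). BARD1, the partner that completes the BRCA1 ligase, rose far less, from 25.3 ± 1.28 to 34.5 ± 2.33 CPM (log2 0.45 ± 0.06). BRCA2, which acts on single-stranded DNA (chromosome 13, 32315474 to 32400266), had 23.3, 21.7 and 24.0 CPM with DMSO and 53.5, 54.9 and 62.5 CPM with NTX301. That is a log2 fold change of 1.31 ± 0.07, with an edgeR adjusted p of 8.8e-09. PALB2, which joins BRCA1 to BRCA2, changed like BARD1, by 0.45 ± 0.06 on the log2 scale. BRIP1, a helicase that binds BRCA1, rose from 4.56 ± 0.348 to 9.46 ± 0.944 CPM. The 5 genes thus rose by unequal amounts, BARD1 and PALB2 least.

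RAD51B, RAD51C, RAD51D, XRCC2 and XRCC3 form paralogue complexes that assist strand invasion, and 4 of the 5 rose. XRCC2 (ENSG00000196584.4, chromosome 7, 152644779 to 152676165) had 11.5, 11.9 and 14.1 CPM with DMSO and 41.9, 41.1 and 42.7 CPM with NTX301. Its log2 fold change of 1.75 ± 0.07 was the second highest of the 39 (edgeR adjusted p = 9.5e-10). RAD51C, which takes part in both paralogue complexes, went from 17.6, 16.0 and 16.7 to 41.5, 41.8 and 43.2 CPM (log2 1.33 ± 0.05). RAD51B rose by 0.78 ± 0.12 and XRCC3, the partner of RAD51C, by 0.67 ± 0.05. XRCC3 shares 5756 of its 7507 exon bases with KLC1 on the other strand, and as no strand setting is given in the sources used here, their reads may not have been separated. RAD51D, which pairs with XRCC2, did not pass the test. It had 39.5, 36.0 and 36.9 CPM with DMSO and 35.0, 35.2 and 33.2 CPM with NTX301 (log2 -0.12 ± 0.05, edgeR adjusted p = 0.0574). The sign of its difference depended on the scale. In TPM it was 15.4, 15.1 and 14.3 with DMSO and 16.2, 18.6 and 18.7 with NTX301, and on log2(TPM + 1) the difference was 0.23 (limma adjusted p = 0.0181, the alternatives spanning 0.0169 to 0.2032). On the CPM scale it was called lower without DMSO replicate 2 or 3 (edgeR adjusted p 0.0373 and 0.0419).

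Of the factors that act during strand exchange, 3 of 4 rose. RAD51AP1, which stimulates joint formation (ENSG00000111247.15, chromosome 12, 4538798 to 4560048), had the highest fold change of all 39 genes. Its level was 11, 10.5 and 11.9 CPM with DMSO and 40.6, 44.4 and 41.2 CPM with NTX301, 3.78-fold higher (log2 1.92 ± 0.06, edgeR adjusted p = 3.3e-10). The DNA translocases RAD54L and RAD54B rose by 1.01 ± 0.09 and 0.83 ± 0.10 on the log2 scale. RAD54L shares 806 of its 3212 exon bases with LRRC41 on the other strand. RAD54B shares 3139 of its 5313 exon bases with FSBP on the same strand, and the estimate depends on how RSEM shared out their reads. RAD52, an annealing protein that backs up BRCA2, was at 6.31 ± 0.285 and 6.35 ± 0.0831 CPM, and its groups overlapped (log2 0.01 ± 0.10, edgeR adjusted p = 0.9442).

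The Fanconi core complex is the ubiquitin ligase of the crosslink pathway, with FANCL as its catalytic subunit and UBE2T as its ubiquitin-conjugating enzyme. Of these 9 genes 7 rose and 1 fell. UBE2T (ENSG00000077152.12, chromosome 1, 202331657 to 202341980) went from 13.1, 11.5 and 9.25 CPM to 33.3, 31.0 and 33.0 CPM. The DMSO libraries spread more here than for most members, and all lay below the treated ones (log2 1.52 ± 0.09, edgeR adjusted p = 4.0e-08). FANCL did not pass the test. It had 35.8, 37.0 and 41.4 CPM with DMSO and 41.0, 39.1 and 34.6 CPM with NTX301 (log2 0.01 ± 0.07, edgeR adjusted p = 0.9241), and the groups overlapped. Without a scaling factor FANCL was past the threshold (log2 0.21, edgeR adjusted p = 0.0203). FANCB, which lies with FANCL in the catalytic module, rose by 1.23 ± 0.13 to 8.05 ± 1.15 CPM, and FANCG, of another module, rose by 1.14 ± 0.06 to 30.8 ± 1.25 CPM. FANCM, the translocase that anchors the complex to DNA, rose by 0.99 ± 0.07. FANCE, FANCC and FANCA rose by 0.61 ± 0.12, 0.57 ± 0.07 and 0.40 ± 0.05. FANCA shares 2302 of 9736 exon bases with ZNF276 on the other strand, and FANCL shares 452 of 2412 with VRK2 there.

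FANCF, an adaptor of the core complex whose promoter is known to be methylated in some ovarian tumours, had 26, 28.2 and 26.6 CPM with DMSO and 22.1, 22.3 and 25.0 CPM with NTX301. All treated libraries lay below the controls on this scale (log2 -0.22 ± 0.06, edgeR adjusted p = 0.0084). The call ended without a scaling factor (log2 -0.01, edgeR adjusted p = 0.8826) and on log2(TPM + 1) (log2 -0.01, limma adjusted p = 0.9235), and adjusted p ran from 0.0024 to 0.9235 across settings. In TPM the gene was at 13.8 ± 0.759 and 13.7 ± 1.34. FANCF shares 333 of its 2952 exon bases with GAS2 on the other strand.

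The substrates of this ligase, which clamp around DNA as a pair once modified, both rose. FANCI (ENSG00000140525.20, chromosome 15, 89243949 to 89317261) had 55.8, 52.6 and 56.2 CPM with DMSO and 171, 171 and 182 CPM with NTX301. It had the smallest adjusted p of the 39 (6.8e-11 in edgeR's test), with a log2 fold change of 1.67 ± 0.04. FANCD2 went from 23.7, 23.1 and 23.0 CPM to 46.2, 47.4 and 46.4 CPM, a log2 fold change of 1.00 ± 0.05 with a very narrow spread in either group. In TPM, which allows a comparison between genes, FANCI exceeded FANCD2 by 20.3 ± 1.04 to 7.61 ± 0.0643 with DMSO and by 73.6 ± 4.87 to 17.7 ± 0.437 with NTX301.

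BLM, RMI1 and RMI2, which together with a topoisomerase dissolve the joined intermediates of recombination without crossovers, rose by nearly equal amounts. BLM, the helicase, went from 19.6, 19.7 and 19.0 CPM to 39.3, 38.8 and 39.9 CPM (log2 1.02 ± 0.05). RMI1 and RMI2, the accessory subunits, rose by 0.98 ± 0.05 and 0.92 ± 0.05. WRN, a RecQ helicase outside that complex, had 15.5, 14.6 and 15.8 CPM with DMSO and 17.1, 16.7 and 17.7 CPM with NTX301. The groups did not overlap, but the difference of 0.17 ± 0.07 on the log2 scale (edgeR adjusted p = 0.0374) missed the threshold with DESeq2 (adjusted p = 0.2423, where all settings spanned 3.3e-04 to 0.2423) and with no filter on low counts (edgeR adjusted p = 0.1583). It was also lost without DMSO replicate 1 or 2 or without NTX301 replicate 1 or 3 (edgeR adjusted p 0.0708, 0.1610, 0.0856 and 0.1111).

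The genes of end sensing and resection had the lowest median of the 8 role groups (0.11), with 2 of 4 rising and 1 falling. MRE11, the nuclease, rose from 35.6 ± 3.01 to 49.3 ± 1.34 CPM (log2 0.47 ± 0.06). NBN, the subunit that brings ATM to the break, had 173, 171 and 175 CPM with DMSO and 129, 132 and 127 CPM with NTX301. Every treated library was lower, 1.34-fold on average, with a log2 fold change of -0.42 ± 0.04 and an edgeR adjusted p of 6.3e-07. NBN stayed lower without a scaling factor (log2 -0.21, edgeR adjusted p = 1.7e-04), and was the only member called lower in each setting that was run. RAD50, the coiled-coil subunit of the same complex, had 151, 151 and 161 CPM with DMSO and 149, 155 and 167 CPM with NTX301, with overlapping groups (log2 0.03 ± 0.05, edgeR adjusted p = 0.6251). Without a scaling factor RAD50 was past the threshold (log2 0.23, edgeR adjusted p = 0.0015). RAD50 shares 7784 of its 9771 exon bases with the unnamed ENSG00000283782 on the same strand, so its reads were divided by estimate. RBBP8, which encodes CtIP, rose by 0.20 ± 0.04.

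Of the 6 checkpoint genes 4 rose, and the kinases that sit at the top of the pathway were not among them. CHEK1, the effector kinase of the replication checkpoint (ENSG00000149554.14, chromosome 11, 125625136 to 125676255), had 33.6, 33.6 and 33.8 CPM with DMSO and 90.1, 95.1 and 93.9 CPM with NTX301. This is a log2 fold change of 1.47 ± 0.04, with an edgeR adjusted p of 1.1e-10. CHEK2, the effector of ATM, rose from 4.06 ± 0.0534 to 10.5 ± 0.254 CPM (log2 1.37 ± 0.09). Its level per length was 4.12 ± 0.390 TPM with DMSO, beside 22.3 ± 0.134 TPM for CHEK1. TOPBP1, which activates ATR, rose by 0.90 ± 0.04 and ATRIP, its targeting subunit, by 0.57 ± 0.09. ATR itself was at 35.1 ± 2.21 and 32.6 ± 1.77 CPM (log2 -0.10 ± 0.06, edgeR adjusted p = 0.1458) and had the opposite sign without a scaling factor (0.10). Without DMSO replicate 1 it was called lower (-0.16, edgeR adjusted p = 0.0454). ATM had 104, 107 and 114 CPM with DMSO and 112, 109.9 and 124 CPM with NTX301. Its groups overlapped (log2 0.09 ± 0.05, edgeR adjusted p = 0.1587), although it was past the threshold without a scaling factor (0.29, edgeR adjusted p = 6.5e-04) and on log2(TPM + 1) (0.32, limma adjusted p = 0.0084). ATRIP shares 1515 of 5431 exon bases with TREX1 on the same strand, and ATR shares 2048 of 12496 with EIF2AK1P1 on the other strand.

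**Figure D2:**
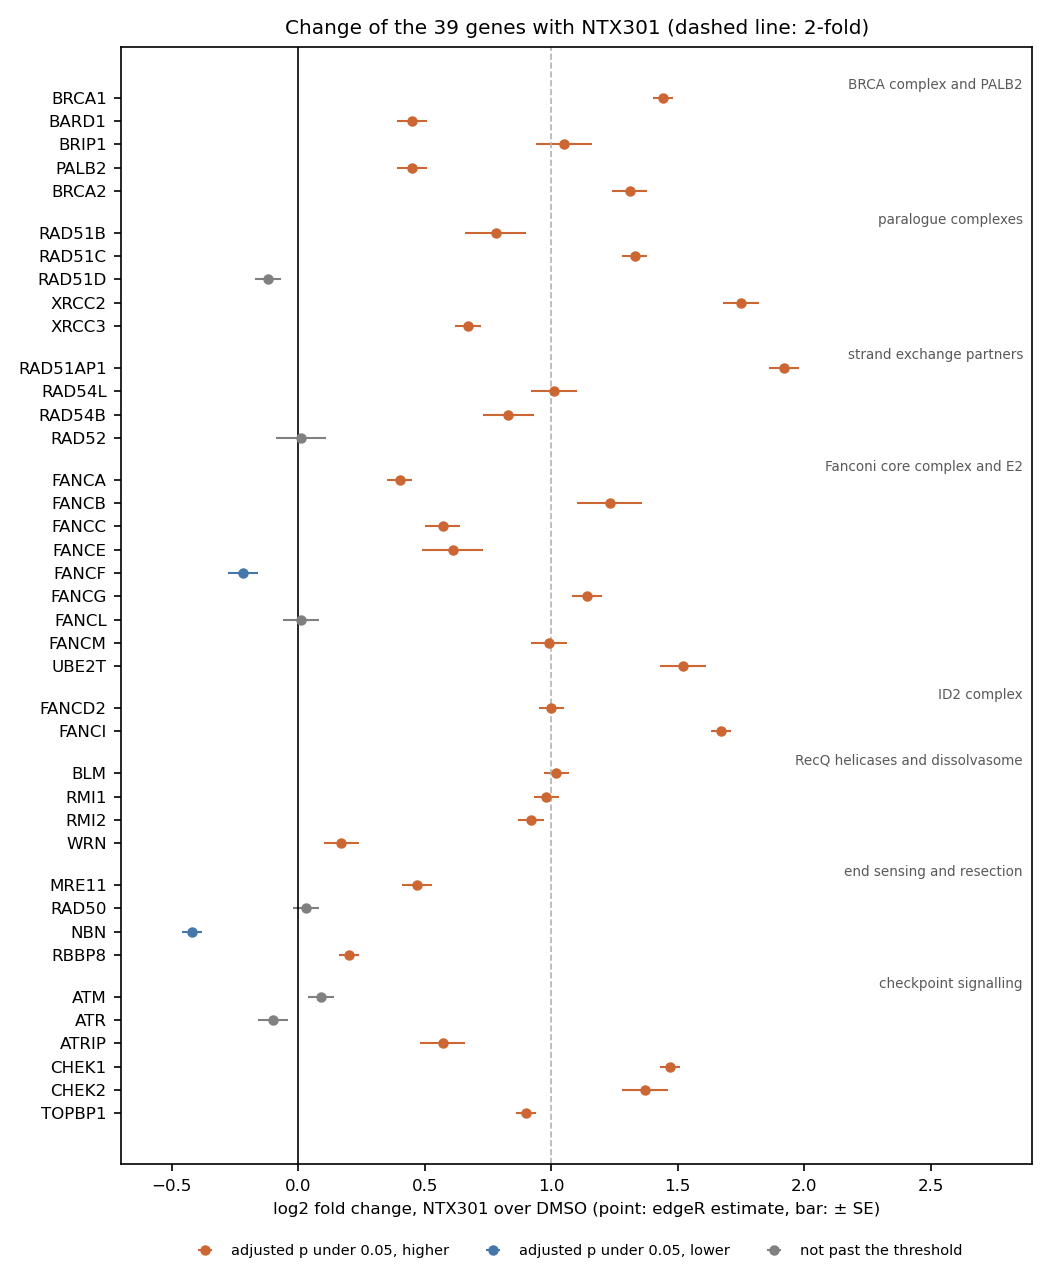
Fitted log2 fold change (NTX301 over DMSO, edgeR) with its standard error for each of the 39 genes, grouped by role and coloured by call. RAD51AP1, XRCC2 and FANCI lie furthest right, RAD50, FANCL and RAD52 lie near 0, and NBN lies furthest left at -0.42.

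Of 41 tested genes of recombination and crosslink repair outside the members, 21 rose and 14 fell, with a median log2 fold change of 0.15. By the same rule 35.4% of all tested genes rose and 35.1% fell. EME1, a partner of the MUS81 nuclease, had the highest change, from 8.07 ± 0.491 to 30.6 ± 0.539 CPM (log2 1.92 ± 0.06). FAAP100, a subunit of the Fanconi core complex together with FANCB and FANCL, had the lowest, from 61.8 ± 1.43 to 17.9 ± 1.33 CPM (log2 -1.79 ± 0.06, edgeR adjusted p = 2.3e-10). Within the catalytic module of the core complex, FANCB thus rose, FANCL had overlapping groups and FAAP100 fell. Of 17 checkpoint partners 16 rose and 1 fell (median 0.57). CDC25A, the phosphatase that CHEK1 restrains, rose by 1.81 ± 0.09, and ETAA1, an activator of ATR that does not need TOPBP1, fell by 0.34 (SE 0.06), a call lost without a scaling factor (edgeR adjusted p = 0.0558).

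Among 24 genes of end joining and of the factors that oppose resection, 11 rose and 9 fell (median -0.01). Shares of all tested genes, for this and the next lists, were 35.4% rising and 35.1% falling. SHLD3, of the shieldin complex, rose by 1.33 ± 0.15, from 2.03 ± 0.269 to 5.14 ± 0.402 CPM. The complex did not move as 1, with SHLD1 at -0.43, SHLD2 at -0.18 and MAD2L2 at 0.52. Of 7 mismatch repair genes 3 rose and 1 fell (median 0.04), with MSH3 at -0.29 ± 0.06, a call lost without a scaling factor (edgeR adjusted p = 0.2061). Of 18 base excision repair genes 10 rose and 4 fell (median 0.32), from NTHL1 at -1.82 ± 0.07 to NEIL3 at 2.47 ± 0.11. NTHL1 and NEIL3 are both glycosylases that remove oxidised bases. No test was run of the difference between these lists and the members.

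Markers of the cell cycle moved beside the members. Of 23 S phase markers 21 rose and 1 fell (median 0.80), with CDC6, a licensing factor, at 1.53 ± 0.05 and MCM6, a helicase subunit, at -0.31 ± 0.04. Their summed level was 1001 to 1028 TPM with DMSO and 1885 to 1995 TPM with NTX301, a ratio of 1.89 beside 1.87 for the members. In summed CPM the ratios were 1.63 and 1.49. All 20 tested markers of G2 and mitosis rose (median 1.44), from CENPF at 0.60 ± 0.05 to CENPA at 1.95 ± 0.10, with 569 to 668 TPM in sum with DMSO and 1958 to 2038 TPM with NTX301. Of the 39 members, 20 lay above the median of the S phase markers and 6 above that of the G2 and mitosis markers. In bulk RNA, more cells in a phase and more transcript per cell cannot be told apart, and the part of the cell cycle in the members' rise was not tested. Of 22 p53 targets 11 rose and 6 fell (median 0.16), beside 35.4% and 35.1% of all tested genes. The targets ran from BBC3 at -1.30 ± 0.11 to CDKN1A, a cell cycle inhibitor, at 2.70 ± 0.07.

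**Figure D3:**
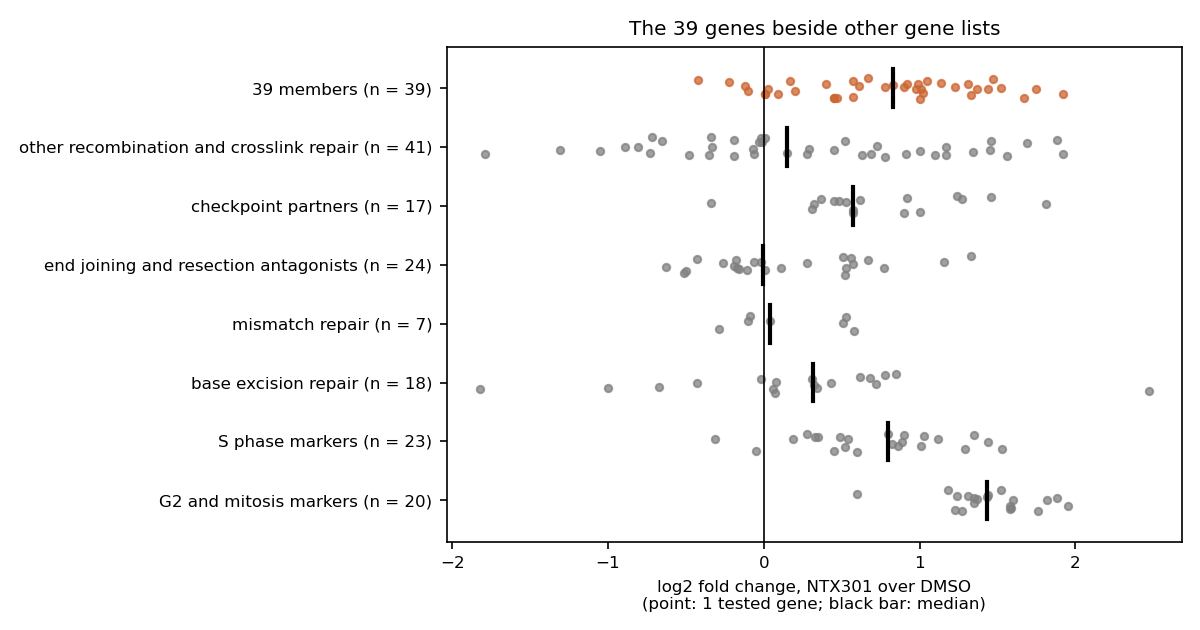
Fitted log2 fold change of each tested gene in the 39 members and in 7 other gene lists, with a black bar at the median of each list. The members' median of 0.83 lies beside that of the S phase markers (0.80), below that of G2 and mitosis (1.44) and above that of mismatch repair (0.04).

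Some of these genes start close to a neighbour on the other strand that runs the other way. In GENCODE 29, 15 members had such a neighbour, within 1000 bases between annotated starts, that was expressed enough to be tested. Of these 15 neighbours 10 rose, 3 fell and 2 were not called, where 35.4% of all tested genes rose and 35.1% fell. CHEK2 rose together with HSCB, a chaperone of iron-sulfur cluster assembly. HSCB had 3.02, 3.21 and 2.75 CPM with DMSO and 6.61, 6.57 and 6.26 CPM with NTX301 (log2 1.11 ± 0.12, beside 1.37 for CHEK2). MRE11 and ANKRD49 also moved together, at 0.47 and 0.37. Some other pairs did not, and further pairs in which both genes rose are given below. NBR2, the noncoding gene beside BRCA1, had 14.6, 15.5 and 18.6 CPM with DMSO and 12.9, 15 and 13.7 CPM with NTX301 (log2 -0.22 ± 0.10, edgeR adjusted p = 0.0581), with overlapping groups, while BRCA1 rose by 1.44. Without a scaling factor NBR2 was at -0.02 (edgeR adjusted p = 0.8729). HNRNPK, an abundant RNA-binding protein gene beside RMI1, fell by 0.27 (SE 0.04), a call lost without a scaling factor (edgeR adjusted p = 0.1222). HSCB overlaps CHEK2 by 301 exon bases and ANKRD49 overlaps MRE11 by 225, so some of their reads may not have been separated by strand.

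The bases between the RefSeq starts of these 4 pairs are shown because both genes border each stretch, in pairs that moved together and in pairs that did not. They are given 5′ to 3′ on the strand of the member (GRCh38.p14), and capitals mark CCAAT or its reverse complement ATTGG, the box bound by the factor NF-Y.
BRCA1 and NBR2, minus strand, chr17:43125365-43125556: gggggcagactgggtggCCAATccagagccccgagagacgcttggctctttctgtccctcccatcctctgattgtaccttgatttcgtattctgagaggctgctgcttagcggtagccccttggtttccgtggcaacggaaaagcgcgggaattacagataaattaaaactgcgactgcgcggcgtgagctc
CHEK2 and HSCB, minus strand, chr22:28741821-28742031: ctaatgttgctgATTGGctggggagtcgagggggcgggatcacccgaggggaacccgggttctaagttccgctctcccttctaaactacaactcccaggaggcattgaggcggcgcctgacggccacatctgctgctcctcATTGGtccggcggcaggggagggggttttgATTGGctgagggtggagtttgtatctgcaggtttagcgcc
MRE11 and ANKRD49, minus strand, chr11:94493845-94493983: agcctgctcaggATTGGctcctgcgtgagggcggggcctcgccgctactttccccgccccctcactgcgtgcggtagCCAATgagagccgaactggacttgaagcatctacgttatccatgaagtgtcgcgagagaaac
RMI1 and HNRNPK, plus strand, chr9:83980216-83980358: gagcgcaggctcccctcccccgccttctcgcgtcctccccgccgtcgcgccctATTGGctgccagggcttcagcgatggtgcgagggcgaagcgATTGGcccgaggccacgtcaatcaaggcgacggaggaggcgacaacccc

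The stretch of BRCA1 held 1 such box in 192 bases, that of CHEK2 held 3 in 211 bases, and those of MRE11 and RMI1 held 2 each in 139 and 143 bases. Over whole promoter windows of 300 bases, 46.8% of the members' 47 windows held the box on either strand, and 34.6% of all 35116 windows did. Counted by gene, it was 17 of the 34 members with a window and 42.3% of the tested genes with one. A match is a string of letters and shows no binding.

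The largest change among the neighbours was that of TEX14, a germ cell bridge gene that starts 518 bases from RAD51C. TEX14 had 0.851, 0.542 and 0.482 CPM with DMSO and 6.25, 6.26 and 7.35 CPM with NTX301 (log2 3.38 ± 0.19, edgeR adjusted p = 2.1e-08), beside 1.33 for RAD51C. CIDECP1, a pseudogene beside FANCD2, rose by 1.49 ± 0.30 at under 4 CPM in every library. NPAT, a coactivator of histone genes beside ATM, rose by 0.54 ± 0.05 although ATM was not called. ATM shares 257 of its 23972 exon bases with NPAT and C11orf65 on the other strand. ZFYVE21, beside XRCC3, fell by 0.45 (SE 0.05), and C12orf4, beside RAD51AP1, rose by 0.73 ± 0.06. SNHG31 beside BARD1, MOSPD2 beside FANCB and FKBP3 beside FANCM rose by 0.76 ± 0.16, 0.39 ± 0.06 and 0.16 ± 0.05. The unnamed ENSG00000265943 beside RBBP8 rose by 1.16 ± 0.43, at a low level (0.260 CPM with DMSO and 0.592 CPM with NTX301). DCTN5, beside PALB2, was at -0.12 ± 0.04, a call lost without a scaling factor (edgeR adjusted p = 0.0730), and ENSG00000244380, beside ATRIP, was at -0.30 ± 0.31.

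**Figure D4:**
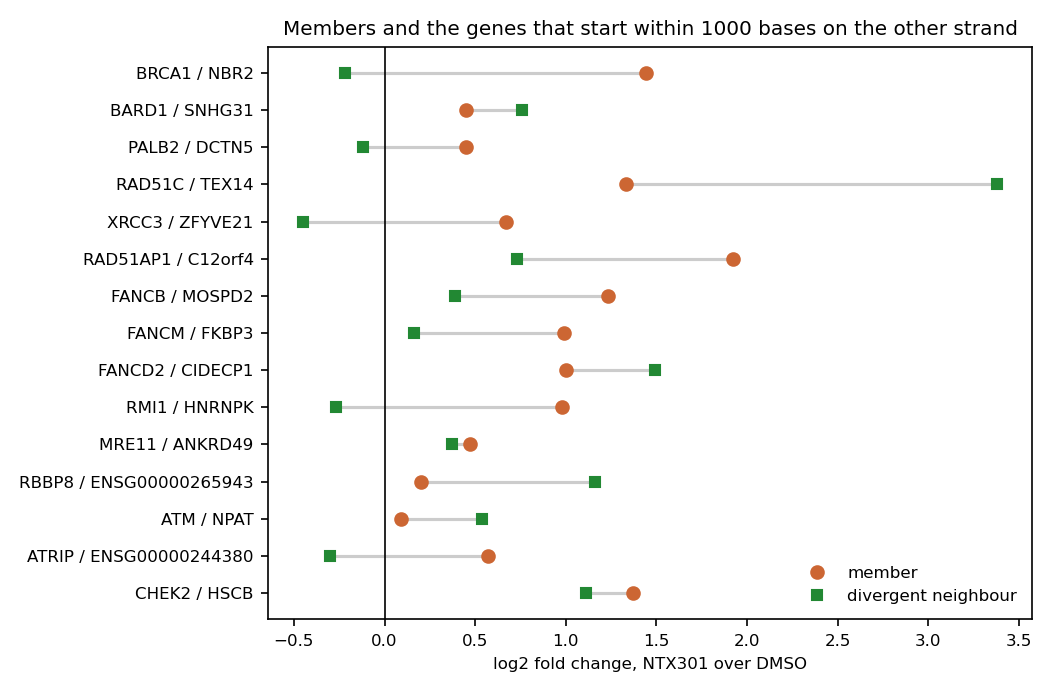
Fitted log2 fold change (NTX301 over DMSO) of each member with a tested neighbour starting within 1000 bases on the other strand (orange circle) and of that neighbour (green square). CHEK2 and HSCB lie close together, BRCA1 lies far right of NBR2, which was not called (-0.02 without a scaling factor), and TEX14 lies furthest right at 3.38.

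The members' promoters were rich in CpG, the dinucleotide that DNA methyltransferases modify. RefSeq gave windows from 250 bases before to 50 bases after a start for 34 of the 39 genes. Of these, 32 genes (94.1%) had a window with a CpG ratio, observed over expected, of 0.6 or more, against 83.3% of 12395 tested genes with a window and 51.9% of all 27305 genes. The exceptions were RAD51B, at 0.25 and 0.26 in its 2 windows, and CHEK1, at 0.53. The windows of these genes lay inside the gene and did not cover its annotated start. For RAD51B they began at 67823291 or later, past the annotated start at 67819779. For CHEK1 they began at 125625974 or later, past the annotated start at 125625136. The CpG ratio at these annotated starts was not examined. Methylation was not measured in these files. Of the members that rose by 2-fold or more 92.9% had a window with a CpG ratio of 0.6 or more, and of the other members 95.0%.

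Motifs of the E2F family, which drives S phase genes, were searched on both strands as TTTCCCGC, TTTGGCGC, TTTCGCGC or TTTGCCGC. A match lay in 6 of the members' 47 windows (12.8%), against 3.31% of all 35116 windows. Counted by gene, it lay in 17.6% of the 34 members and 6.28% of the tested genes with a window. The 6 genes were FANCD2, TOPBP1, XRCC2, RMI1, FANCC and FANCA. All 6 rose, as did 31 of all 39 members. A match was held by 2 of the 14 members with a window that rose 2-fold or more and by 4 of the other 20. RAD51AP1, BRCA1 and CHEK1 held no exact match to these strings in their windows, and looser forms were not searched. The CHEK1 windows lay past its annotated start, so the sequence at that start was not searched. The element TTTGAA was found in 8.51% of the members' windows and 15.2% of all windows, or, by gene, in 11.8% of the members and 14.0% of the tested genes with a window. The matches nearest to a start are shown in capitals, 5′ to 3′ on the strand of the gene in GRCh38.p14, because their place relative to the start differed between genes that rose. FANCC holds 2 matches and FANCA is not shown.
XRCC2, minus strand, chr7:152676112-152676171: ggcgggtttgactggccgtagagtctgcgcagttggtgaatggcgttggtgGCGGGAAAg
FANCD2, plus strand, chr3:10026387-10026446: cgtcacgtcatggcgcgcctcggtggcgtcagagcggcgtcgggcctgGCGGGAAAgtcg
TOPBP1, minus strand, chr3:133661932-133661991: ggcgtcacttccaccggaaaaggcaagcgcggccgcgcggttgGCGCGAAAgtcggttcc
RMI1, plus strand, chr9:83980755-83980814: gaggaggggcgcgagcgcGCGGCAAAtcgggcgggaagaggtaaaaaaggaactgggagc
FANCC, minus strand, chr9:95317700-95317759: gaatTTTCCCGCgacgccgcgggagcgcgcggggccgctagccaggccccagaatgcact

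In XRCC2 the match began 21 bases past the start, in FANCD2 it spanned the start, in TOPBP1 it ended on the start base, and in RMI1 and FANCC it ended before it. For RMI1 this refers to the RefSeq start at chr9:83980805, and the match lies downstream of its other start at chr9:83980359.

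The tables also give, for each gene and library, the mean length of its transcripts weighted by their estimated abundance, which shifts when a gene uses other transcripts. Of the 36 members with several annotated transcripts, the groups did not overlap in 12, 6 shorter and 6 longer with NTX301, against 25.4% of 12309 tested genes with several transcripts (16.1% shorter and 9.37% longer). At a mean of 5 TPM or more it was 11 of 33 members against 29.7% of 8680 genes, so nothing particular to the members is read from it. The largest shift was in BRIP1, with 5723, 5758 and 5584 bases with DMSO and 4516, 5129 and 3959 bases with NTX301. In ATRIP the mean fell from 3921 ± 295 to 3209 ± 208 bases and in MRE11 from 4032 ± 151 to 3621 ± 67.1 bases (SD, n = 3 each). The mean fell by 5.45% in RAD51B and by 1.72% in NBN, and RAD54B went from 2968 ± 31.4 to 2864 ± 73.9 bases.

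RAD51C went the other way, with 976, 987 and 999 bases with DMSO and 1086, 1120 and 1085 bases with NTX301. FANCL, whose groups overlapped in CPM, also went up, from 1449 ± 19.2 to 1569 ± 16.1 bases, with 33 annotated transcripts. BARD1 and RAD51AP1 gained 325 and 124 bases on average, and FANCI and BLM 83 and 138 bases. BRCA1 and BRCA2 overlapped between groups in this measure, at 5601 ± 475 and 5862 ± 157 bases and at 11930 ± 13.7 and 11932 ± 18.8 bases. With 3 libraries against 3, an exact permutation test cannot go below 0.10, so no test was made of single genes, and the split of reads between transcripts is an estimate.

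**Figure D5:**
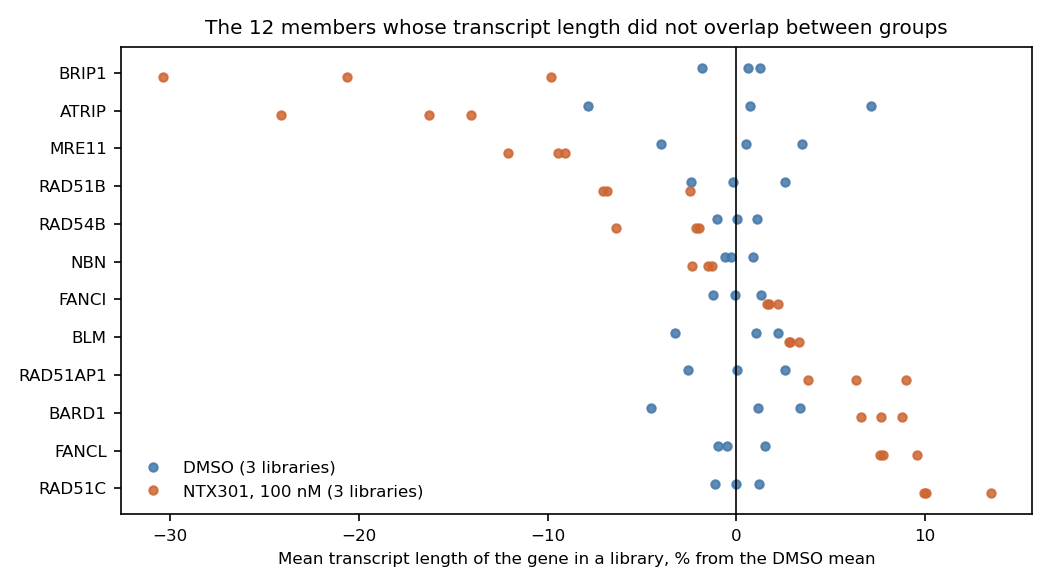
Mean transcript length in each library, in % from the gene's DMSO mean, for the 12 members whose groups did not overlap, with 1 point per library (blue DMSO, orange NTX301). BRIP1, ATRIP and MRE11 lie lowest with NTX301, and RAD51C, FANCL and BARD1 highest.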

How the data were processed

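RNA of 3 DMSO and 3 NTX301 libraries was compared, grouped and numbered by the labels. The authors deposited 1 RSEM gene table per library, per the file headers. The deposited expected counts are RSEM's estimates of reads from a gene and are not normalized. The deposited TPM values were scaled in the authors' RSEM run. The deposited length column is the abundance-weighted transcript length of a gene in bases. Not given in the sources used here are tool versions, genome build, annotation release and strand setting. Reads that match several genes are shared out by estimate in RSEM.

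For 47 pseudoautosomal genes the Y entry was added to the X entry. Expected counts were rounded and tested with edgeR 4.0.16 (R 4.3.3): filterByExpr (19029 genes), TMM scaling (factors 0.9206 to 1.0834), glmQLFit and glmQLFTest with treatment as the only term, and Benjamini-Hochberg adjustment with a threshold of 0.05. CPM are counts scaled by library total times TMM factor. Each standard error is the absolute log2 fold change divided by the root of F. The steps were tested on simulated data in which far fewer genes changed than were called here. A change as broad as the one in these libraries was not simulated. Positions, overlaps and neighbours came from GENCODE 29 (GRCh38) by stable identifier, and promoters from RefSeq (GRCh38.p14). Overlaps may differ in the annotation the authors used.

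Alternatives were DESeq2 1.42.0, other filters on low counts, no scaling factor, limma 3.58.1 on log2(TPM + 1) and log2(TPM + 0.1), a replicate block, and leaving out each library. The members and lists were chosen with earlier results of these data known. Named genes were all members, the highest and lowest called gene of each other list, SHLD1, SHLD2 and MAD2L2 beside SHLD3, and every tested neighbour. A few of these are not reported here. Of the listed genes 1, FIRRM, matched no symbol.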

Additional observations from a re-analysis of the deposited data

How the results depend on the processing

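Of 507 refits of single members under the alternatives, 468 kept the direction and the side of the threshold, and 31 of 39 members did so in all of them. The members called higher numbered 30 to 34 and those higher by 2-fold or more 12 to 22. Members called lower numbered 2 or 3, and 1 without a scaling factor and with limma on log2(TPM + 1) or log2(TPM + 0.1), where FANCF was no longer called. Genes called lower over the whole table numbered 4318 and 4297 on these 2 TPM scales. The members' median log2 fold change of 0.83 was 1.04 without a scaling factor, 0.98 on log2(TPM + 1), 1.07 on log2(TPM + 0.1), 0.80 without a filter on low counts, and 0.80 to 0.90 with a library left out. The ratio of summed levels was 1.87 in TPM and 1.49 in CPM.

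Signs turned only in members that were not called. RAD51D was at 0.09 without a scaling factor and at 0.23 and 0.25 on the TPM scales, and ATR at 0.10, 0.10 and 0.11. RAD52 was at -0.02 without a filter and at -0.03 to 0.04 without single libraries, FANCL at -0.02 and at -0.05 to 0.07, and RAD50 at 0.00 and at -0.02 to 0.06. The cause was not tested.

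Replicate numbers showed no clear pairing: deviations of same-numbered libraries from their group means correlated at 0.08, -0.028 and 0.043. With 3 libraries per group, such values cannot exclude a culture shared by libraries of the same number. With a replicate block 6837 genes rose and 6749 fell, and 32 members rose and 3 fell, adding ATM (0.09, adjusted p = 0.0445) and RAD51D (-0.12, adjusted p = 0.0493). Not every library correlated best with its own number. FANCB, at 3.44 CPM with DMSO, had the widest standard error, 0.13.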
